A study of Mus musculus with 4 samples.

Results

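The genes described here are 10 secreted or membrane-bound regulators of the extracellular matrix: the matrix metalloproteinases Mmp2, Mmp3, Mmp9, Mmp12, Mmp13, Mmp14 and Mmp16, and the tissue inhibitors of metalloproteinases Timp1, Timp2 and Timp3. They were taken by symbol from the 31053 mouse genes of the count matrices, and all 10 were present. The samples were 4 mammary tumours grown from H605, a HER2-positive mouse mammary tumour cell line, injected into the mammary pad. The hosts were FVB/NJ mice, 6 to 8 weeks old by label. Tumours were taken on day 14 from 2 wild-type hosts (WT) and from 2 hosts without a working gene for interleukin 1 alpha (Il1a-/-). The same line was injected in both groups, so that only the host differed by label. Whole tumours were dissociated with collagenase IV and hyaluronidase, depleted of dead cells and sequenced cell by cell from the 3' end of each transcript, with each molecule counted once by its unique molecular identifier (UMI). The comparison asks what the loss of host interleukin 1 alpha does to the cells around the tumour.

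Metalloproteinases are zinc-dependent enzymes, made as inactive precursors, that cut collagens, elastin, proteoglycans and cell-surface proteins. TIMPs bind the active site of the enzymes. Mmp14, a membrane-anchored collagenase, activates the Mmp2 precursor in a complex that contains Timp2, so an inhibitor also takes part in activation. In mammary tumours most of these genes are known as products of stromal cells rather than of the carcinoma cells, and interleukin 1 is a classical inducer of several of them in cultured fibroblasts.

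Mmp13, Mmp12 and Mmp3 lie close together on chromosome 9 (GRCm38, chr9:7272514-7455975, a span of 183 kb, all on the plus strand), at chr9:7272514-7283331, chr9:7344381-7369499 and chr9:7445822-7455975. Their promoters are shown because, as described below, these neighbours were read out in different cells: Mmp12 and Mmp13 in macrophages and Mmp3 in fibroblasts. For Mmp12 the RefSeq table has 2 promoters, and the one nearest the annotated start is used. Each sequence runs from 250 bases before to 50 bases after the RefSeq start site (GRCm38.p6), with TGAGTCA, the letters bound by AP-1 factors, in capitals wherever they stand on either strand.

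Mmp13 promoter, chr9:7272264-7272563, plus strand: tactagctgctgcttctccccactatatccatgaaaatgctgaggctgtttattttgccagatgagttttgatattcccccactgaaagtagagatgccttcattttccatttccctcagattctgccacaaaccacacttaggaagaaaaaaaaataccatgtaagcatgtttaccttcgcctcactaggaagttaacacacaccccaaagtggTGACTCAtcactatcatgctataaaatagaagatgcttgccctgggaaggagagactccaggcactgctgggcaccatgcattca
Mmp12 promoter, chr9:7344147-7344446, plus strand: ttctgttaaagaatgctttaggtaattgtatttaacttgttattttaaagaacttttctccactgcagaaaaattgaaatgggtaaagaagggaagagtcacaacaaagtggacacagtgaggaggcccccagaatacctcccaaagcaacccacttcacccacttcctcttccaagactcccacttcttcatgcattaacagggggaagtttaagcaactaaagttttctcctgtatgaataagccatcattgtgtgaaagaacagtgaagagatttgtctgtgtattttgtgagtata
Mmp3 promoter, chr9:7445572-7445871, plus strand: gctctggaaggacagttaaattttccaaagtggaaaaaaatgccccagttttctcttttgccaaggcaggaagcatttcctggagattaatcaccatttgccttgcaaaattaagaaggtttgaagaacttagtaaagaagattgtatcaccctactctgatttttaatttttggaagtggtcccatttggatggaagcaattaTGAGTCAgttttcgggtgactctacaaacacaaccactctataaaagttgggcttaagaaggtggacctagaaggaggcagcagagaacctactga

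TGAGTCA was found in the Mmp3 promoter 46 bases before the start and, on the minus strand, in the Mmp13 promoter 35 bases before it, while it was not in the Mmp12 window. Of 32851 mouse promoters of the same length, 5.20% hold it. AGGAAG, the core read by ETS factors of the PEA3 type, was present in all 3, as in 35.4% of promoters, and TATAAA in Mmp3 and Mmp13, as in 13.6%. Mmp12 and Mmp13, both read in macrophages, differed in the AP-1 letters, and the fibroblast gene Mmp3 shared them with Mmp13. Promoters were found for 7 of the 10 members, and TGAGTCA was in none of the windows of Mmp14, Timp1, Timp2 and Timp3.

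The matrices held 6705368 to 29001333 UMIs per library, and 3130 to 3878 cells per sample passed the filters, with median depths of 1348 to 4160 UMIs per cell. The libraries are named by genotype and replicate, and every run of 4 values gives WT replicates 1 and 2 and then Il1a-/- replicates 1 and 2. Il1a had 65, 109, 1 and 0 UMIs in them. Cells were assigned to a class by the number of its marker genes detected, none of them a member: 214 to 352 cells per sample were fibroblast-gated, 160 to 719 macrophage-gated and 2243 to 2356 lymphocyte-gated (T, NK and related cells). Tumour-gated cells numbered 427, 245, 29 and 3, so that no genotype test was made in them. All markers of a class were detected in it in every sample, except that the 3 tumour-gated cells of Il1a-/- replicate 2 showed 7 of 12. Of the called barcodes, 5 to 7 per library also occurred in another library. Levels are counts scaled to depth (CPM): the gene's UMIs divided by all UMIs of the class in that sample, times 1000000. They are not scaled for transcript length, and levels are compared between cells and not between genes. The labels say that the tumours came as pairs from separate days but not that a replicate number marks the day. In genotype comparisons p-values measure only the spread between 2 tumours of a group. In fits over several classes, with the sample as a block, they measure the spread that is left between class sums after the sample.

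Mmp2, the gelatinase that cuts basement-membrane collagen (chr8:92827291-92853420), was a fibroblast transcript. Its level in fibroblast-gated cells was 1195, 808, 1356 and 1224 CPM, against 2.81, 3.37, 2.94 and 1.68 in macrophages. Fibroblasts held 99.0% of all Mmp2 UMIs of called cells. Lymphocyte-gated cells were at 1.27 or lower in every sample, although the RNA floating free of cells carried 132, 90.4, 144 and 159 CPM of Mmp2. Every fibroblast sample thus lay far above every sample of the other classes.

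Mmp3, stromelysin 1, which cleaves proteoglycans and other precursors of the family, was as restricted. Fibroblast levels were 513, 159, 120 and 317 CPM and held 99.1% of its UMIs, and macrophages had 0, 0, 0 and 1 Mmp3 UMIs. The spread was wide within both genotypes, and the groups overlapped.

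Mmp14 (chr14:54431612-54445364) was found in fibroblasts, macrophages and tumour-gated cells. Fibroblasts carried 507, 368, 578 and 533 CPM, macrophages 104, 126, 191 and 61.1, and tumour-gated cells of WT hosts 32.0 (95% exact Poisson interval 27.2 to 37.3) and 51.6 (45.1 to 58.8). Intervals of this kind cover counting error only. Lymphocytes were at 0.675 to 1.14 in all samples. The order fibroblast, macrophage, tumour, lymphocyte held in both WT samples without overlap between neighbouring classes.

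Mmp12, the macrophage elastase, and Mmp13, collagenase 3, were macrophage transcripts. Macrophage-gated cells held 96.2% of all Mmp12 UMIs and 97.1% of all Mmp13 UMIs. Mmp12 stood at 318, 420.1, 294 and 1571 CPM in macrophages, and Mmp13 at 32.8, 56.5, 17.6 and 153. For both genes Il1a-/- replicate 2 was the highest sample and Il1a-/- replicate 1 the lowest, so the genotypes overlapped.

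The Mmp12 message sat in few macrophages. An Mmp12 UMI was seen in 60 of 418, 93 of 719, 9 of 160 and 67 of 404 macrophage-gated cells, and 67.1%, 75.5%, 100% and 79.3% of the UMIs came from the 10 cells with the most. The highest cell of Il1a-/- replicate 2 had 763 Mmp12 UMIs. Mmp13 was found more often where Mmp12 was: in 16.7% (exact binomial 95% interval 8.29 to 28.5), 16.1% (9.32 to 25.2), 22.2% (2.81 to 60.01) and 34.3% (23.2 to 46.9) of macrophages with an Mmp12 UMI, against 3.07%, 2.08%, 0.662% and 1.78% of those without one. Cells with Mmp12 were also deeper, with median counts of 8517, 7429, 3946 and 4772 UMIs against 3776.5, 4110, 1701 and 3409, and the part of depth in this co-detection was not tested. The Mmp13 level in CPM was 108, 245, 86.8 and 526 in cells with Mmp12 and 11.4, 8.77, 9.80 and 34.0 in the others. Both genes were higher among macrophages with a UMI of C1qa, C1qb or C1qc, complement genes of mature macrophages, than among those without in the pooled counts of each sample (Mmp12 346, 463, 652 and 2813 against 269.5, 338, 20.7 and 707; Mmp13 50.1, 84.6, 20.4 and 212 against 2.57, 2.28, 15.5 and 112). The Mmp13 contrast of Il1a-/- replicate 1 rests on 3 UMIs with and 3 without a C1q UMI and lies within counting error. The C1q genes are also 3 of the 14 macrophage gate markers. Macrophages with C1q genes made up 59.1%, 65.1%, 33.8% and 37.4% of the class.

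**Figure D1:**
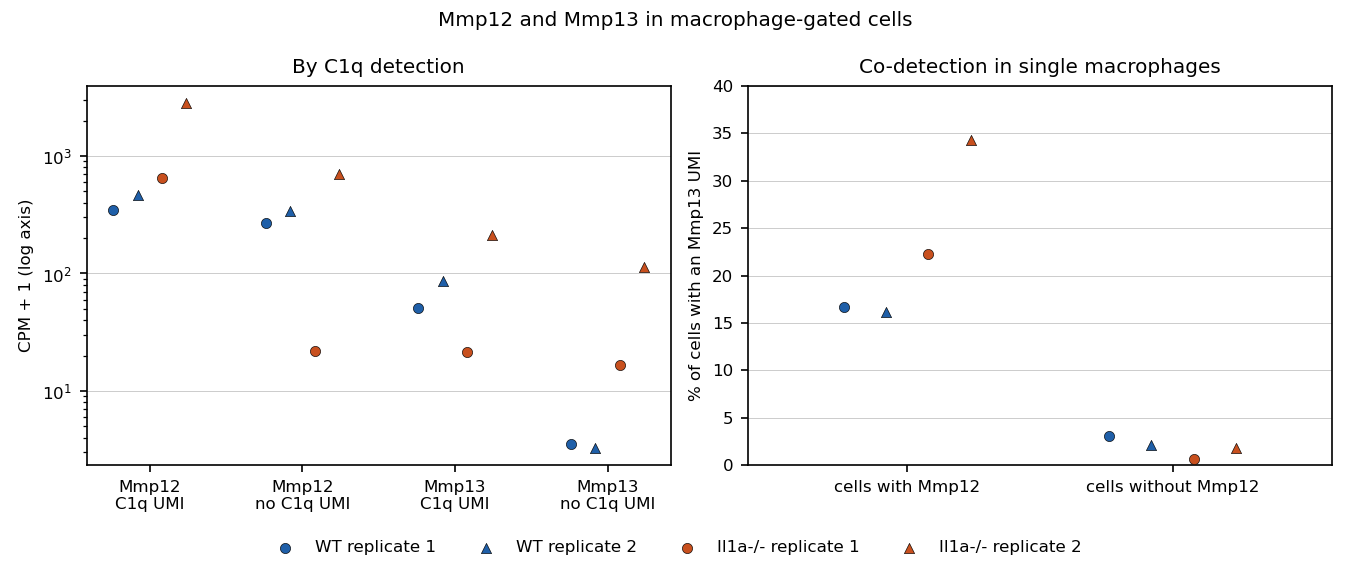
Left, Mmp12 and Mmp13 in macrophage-gated cells with and without a UMI of C1qa, C1qb or C1qc, in CPM plus 1 on a log axis, 1 point per sample (circle replicate 1, triangle replicate 2). Right, percent of macrophages with an Mmp13 UMI among cells with and without an Mmp12 UMI. With Mmp12 the share lies between 16.1% and 34.3%, and without it between 0.662% and 3.07%.

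Mmp9, the gelatinase stored in neutrophil granules (chr2:164940780-164955850), was spread over several classes. Neutrophil-gated cells, 36, 52, 4 and 8 in number, gave 52, 46, 1 and 20 Mmp9 UMIs, which is 1236 (923 to 1621), 618 (453 to 825), 308 (7.80 to 1716) and 2484 (1517 to 3837) CPM with exact Poisson intervals. They held 27.2% of its UMIs. Lymphocytes held 29.5%, fibroblasts 18.9% and macrophages 17.1%, but at low levels of 0 to 19.3 CPM. Within lymphocytes, cells with a UMI of Foxp3, the regulatory T cell factor, carried 16.98, 1.99, 23.7 and 77.8 CPM of Mmp9 against 3.52, 0.387, 1.14 and 5.43 in those without, from 13, 3, 2 and 34 UMIs. Neutrophil markers, 7 of 7 detected, summed to 145, 14.1, 8.34 and 40.4 CPM in lymphocyte-gated cells, where Mmp9 stood at 4.82, 0.591, 1.67 and 9.14 CPM. Of those cells 38, 8, 3 and 15 belonged to a cluster led by the granulocyte gene Retnlg, and they held 2, 0, 0 and 1 of the 38, 7, 6 and 78 Mmp9 UMIs of the gate. Without that cluster the marker sum was still 121, 13.1, 7.23 and 37.9 CPM, and the part of neutrophil RNA in these Mmp9 levels was not tested.

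Mmp16 (chr4:17852893-18119145), a membrane-anchored relative of Mmp14, was read mainly in 2 other classes. Lymphocytes held 52.8% of its UMIs and tumour-gated cells 38.7%. Tumour-gated cells of WT hosts had 132 and 50 Mmp16 UMIs, or 26.0 (21.8 to 30.9) and 11.5 (8.51 to 15.1) CPM, and lymphocytes of WT hosts 144 and 104, or 18.3 and 8.78 CPM. Fibroblasts had 6, 16, 0 and 2 UMIs, and free RNA 15, 9, 1 and 0.

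Among the inhibitors, Timp2 (chr11:118301069-118355740, minus strand) was the most widely spread. Its levels were 1826, 961, 2148 and 1352 CPM in fibroblasts, 336, 257, 144 and 214 in macrophages and 49.5, 70.1, 24.5 and 14.99 in lymphocytes. No fibroblast value overlapped a macrophage value, and no macrophage value overlapped a lymphocyte value. In macrophages it followed the C1q genes: 480.2, 357, 292 and 463 with a C1q UMI against 86.0, 65.2, 31.0 and 40.0 without. Timp3 (chr10:86300372-86349506), which binds to the matrix, was a fibroblast transcript at 491, 325, 957 and 249 CPM, with 98.8% of its UMIs there and 0 to 0.468 CPM in macrophages.

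Timp1 (chrX:20870166-20874735), a soluble inhibitor induced by inflammatory cytokines, stood at 495, 1621, 66.6 and 484 CPM in fibroblasts and 24.8, 81.4, 38.2 and 193 in macrophages. WT replicate 2 was the highest fibroblast sample and Il1a-/- replicate 1 the lowest, with the other 2 nearly level. The 10 fibroblast-gated cells with the most Timp1 held 60.7%, 58.3%, 39.0% and 66.5% of its UMIs there, with 852 in 1 cell of WT replicate 2. In 3 of the 4 samples most of this message came from the fibroblast-gated cells, 39, 69, 3 and 21 in number, of a cluster of 182 cells. The cluster carried the highest summed level of the contractile genes Acta2, Tagln and Postn, and its leading genes also include Timp1 itself, Col12a1 and Tnc. Clusters were built without the 10 members, and the contrast of this one with the rest is a description with no test. The cluster took up 11.1% (exact binomial 95% interval 8.00 to 14.8), 32.2% (26.0 to 39.0), 1.04% (0.215 to 3.004) and 8.11% (5.09 to 12.1) of fibroblast-gated cells and held 71.5%, 83.7%, 3.39% and 68.6% of their Timp1 UMIs. Timp1 was at 3805, 4004, 228 and 3061 CPM inside it and at 156, 399, 65.0 and 170.5 outside. The value of 228 rests on 3 cells and 2 UMIs. Mmp9 followed the same cells, with 12, 50, 0 and 4 UMIs in the cluster and 7, 4, 0 and 6 in all other fibroblasts. Mmp2 went the other way in 3 of the 4 samples, with 647, 538, 1483 and 261 inside and 1251, 946, 1354 and 1342 outside.

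**Figure D2:**
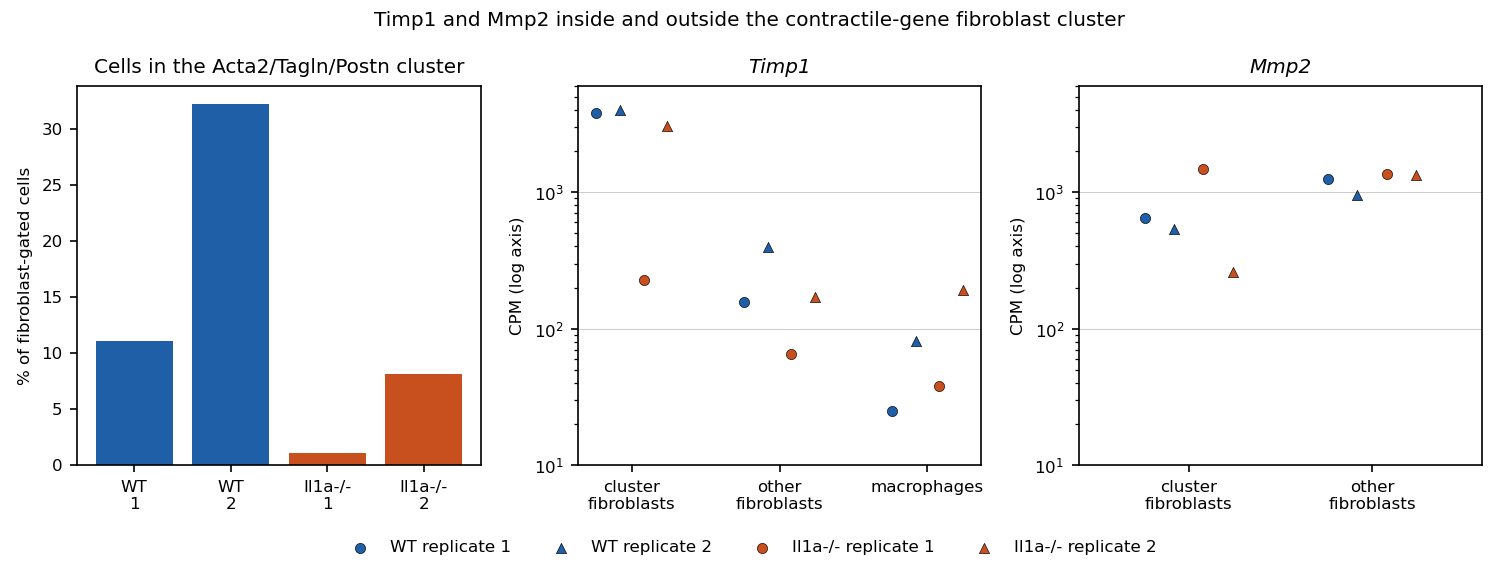
Left, percent of fibroblast-gated cells in the cluster highest in Acta2, Tagln and Postn, by sample. Middle and right, Timp1 and Mmp2 in CPM on a log axis, 1 point per sample, in the fibroblasts of that cluster, in the other fibroblasts and, for Timp1, in macrophages; Timp1 is at 3061 to 4004 in the cluster in 3 samples and at 65.0 to 399 outside it.

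Classes were compared over the 4 samples with edgeR, the sample being a block, on 11192 genes. Of the 9 members tested between fibroblasts and macrophages (all but Mmp16), 8 were called at an adjusted p under 0.05, where 59% of all genes were: 6 were higher in fibroblasts (30.7% of genes) and 2, Mmp12 and Mmp13, lower (28.3%). The log2 difference was 8.68 ± 0.35 (SE) for Mmp2, 2.21 ± 0.22 for Mmp14, 2.84 ± 0.39 for Timp2 and 3.05 ± 0.54 for Timp1 (edgeR adjusted p = 6.81e-10, 2.80e-06, 4.01e-05 and 0.000373). The difference was -10.14 ± 0.42 for Mmp12 and -5.14 ± 0.57 for Mmp13 (edgeR adjusted p = 8.39e-10 and 7.32e-06). Mmp3 and Timp3 were called with fitted differences above these, but their macrophage counts were at or near 0, which makes the fitted size depend on the prior count. The same holds for Mmp12, which had 4 UMIs in fibroblasts. Mmp13 had 13 UMIs there, with 8, 0, 3 and 1 in the contractile cluster, and its difference ran from -8.51 to -4.24 over the alternatives. Mmp9 did not pass (0.30 ± 0.74, adjusted p = 0.751), and without the contractile cluster its difference was -1.80 (adjusted p = 0.0434).

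Against lymphocytes, 7 of 9 members were higher in fibroblasts, where 69.3% of genes were called (34.6% higher), and 6 of 9 were higher in macrophages, where 56% were called (27.5% higher). Mmp14 was 6.998 ± 0.31 higher in macrophages than in lymphocytes on the log2 scale and Timp2 2.79 ± 0.39 (edgeR adjusted p = 2.86e-09 and 6.14e-05). Timp2 was 5.64 ± 0.44 higher in fibroblasts than in lymphocytes (adjusted p = 1.59e-07). Mmp13 was also called higher in fibroblasts than in lymphocytes (4.06 ± 1.21, adjusted p = 0.00992). That call was lost without the contractile cluster (0.76, adjusted p = 0.639) and without WT replicate 1 (2.77, adjusted p = 0.078). Mmp2 between macrophages and lymphocytes (1.79 ± 0.50, adjusted p = 0.00827) was lost without WT replicate 2 (1.64, adjusted p = 0.0618).

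**Figure D3:**
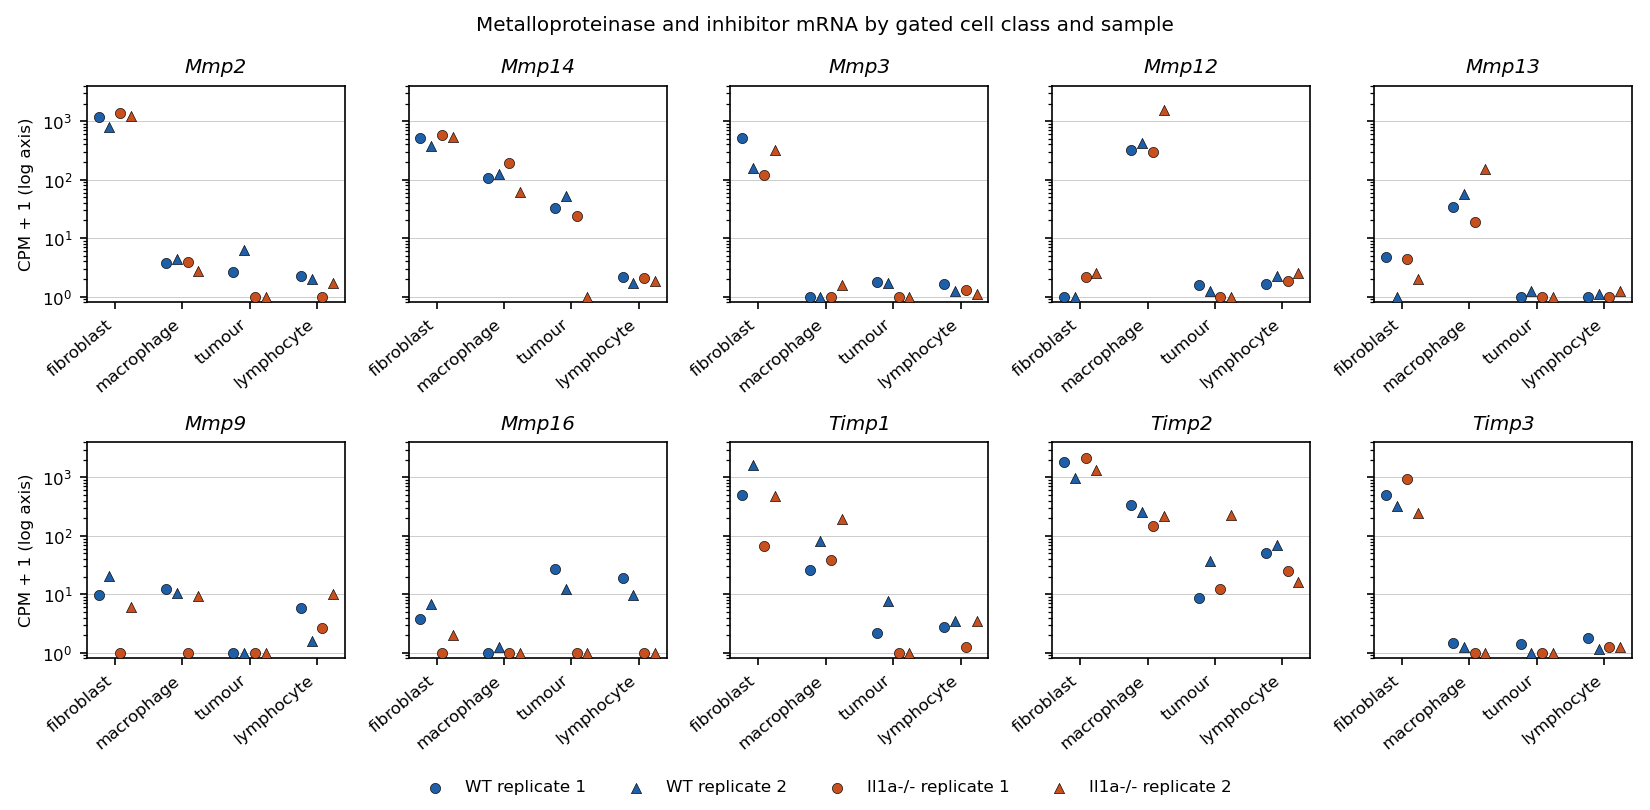
Level of each member in CPM plus 1 on a log axis, by gated class, 1 point per sample (blue WT, orange Il1a-/-; circle replicate 1, triangle replicate 2). Mmp2, Mmp3 and Timp3 stand out in fibroblasts, Mmp12 and Mmp13 in macrophages, and Mmp16 in the tumour and lymphocyte gates of WT samples.

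In fibroblasts no member was called between the genotypes with the low-count filter in place. Of 7 members tested, 0 had an adjusted p under 0.05 by edgeR's quasi-likelihood test, none had an unadjusted p under 0.05, and 0% of all 10015 genes were called (482 at an unadjusted p under 0.05; DESeq2 called 8). Mmp9, with 19, 54, 0 and 10 UMIs, had a log2 fold change of -2.10 ± 0.89 and Timp1 one of -1.91 ± 1.01 (adjusted p = 0.851 for both). Mmp9 was at lower levels in both Il1a-/- samples than in either WT sample. For Timp1 the nearest samples of the groups stood at 484 and 495 CPM, and after TMM normalisation the groups overlapped. With no low-count filter, which took the calls over all genes from 0 to 214, Timp1 and Mmp9 were called lower (edgeR adjusted p = 0.000446 and 0.0144). Mmp2 was at 0.37 ± 0.33 and Mmp14 at 0.34 ± 0.30 (adjusted p = 0.877 and 0.873). For Mmp2 and Mmp14 the 2 Il1a-/- samples lay above both WT samples, but 36.5% of all genes had groups that did not overlap. Mmp3 (-0.59 ± 0.70), Timp2 (0.32 ± 0.43) and Timp3 (0.54 ± 0.62) overlapped between the groups.

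In macrophages 0 of 6 members tested were called by edgeR, where 0.077% of 9088 genes were. With no low-count filter, which raised the calls over all genes from 7 to 510, Mmp12, Mmp13 and Timp1 were called (edgeR adjusted p = 1.51e-05, 0.00084 and 0.000178). Timp2 was at lower levels in both Il1a-/- samples than in both WT samples, and 47.6% of genes had groups that did not overlap. Its log2 fold change was -0.65 ± 0.27, the one member with an unadjusted p under 0.05 (edgeR adjusted p = 0.363). Mmp12 (1.43 ± 0.65, adjusted p = 0.393), Mmp13 (1.21 ± 0.65, adjusted p = 0.461) and Timp1 (1.30 ± 0.70, adjusted p = 0.456) had higher fitted levels in Il1a-/-. Without replicate 2 of that genotype all 3 were lower in Il1a-/-, at -0.39, -1.43 and -0.59. Mmp14 was at -0.01 ± 0.43 and Mmp9 at -0.53 ± 0.59, the latter with groups that did not overlap.

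In lymphocytes 2 of 5 members tested were called, both lower in Il1a-/-, where 4.85% of 11137 genes were called and 1.94% were called lower. Mmp16 had 0 UMIs in both Il1a-/- samples, among 4682 cells and 12134767 UMIs, against 248 UMIs in 4578 WT cells. Mmp16 passed the low-count filter through the WT samples only. It could therefore only be called lower, and its direction is not a result of the test. With a floor of 3 counts over the Il1a-/- group it was at least 50.9-fold lower (edgeR adjusted p = 0.0108; no alternative lost the call, with adjusted p of up to 0.014). The bound was 15.1-fold without Il1a-/- replicate 2, 35.8-fold without Il1a-/- replicate 1, 35.5-fold without WT replicate 1 and 73.9-fold without WT replicate 2. The WT UMIs were spread over many cells, 112 and 79 of them, with 5 at most in one cell. Cells with a UMI of the NK genes Ncr1, Klrb1c or Eomes held 114 and 90 of the WT UMIs, and 0 were seen in 1416 such Il1a-/- cells, at least 21.6-fold lower. In cells with a gamma-delta T cell receptor gene the WT counts were 71 and 59 and the Il1a-/- counts 0 (at least 10.1-fold lower), and in cells with Cd8a or Cd8b1 they were 4 and 11 against 0 (at least 13.3-fold lower). Cells with Cd4 held 7 WT UMIs and 0 Il1a-/- UMIs, where the WT level would have given 2.51, and cells with Foxp3 held 0 in both, so that no difference was detectable in either. A cell could fall in more than 1 of these groups, so their counts overlap and their bounds are not independent. All of these bounds take the pooled WT UMIs as exact. Counting error in WT and the spread between tumours are not in them. A cluster led by Ncr1, Xcl1 and Klra4 had 404, 480, 52 and 2 cells. A cluster led by Tcrg-C4, Trdc and Gzmc had 153, 175, 9 and 0. The part of cell make-up in the Mmp16 difference was not tested. Tumour markers in lymphocytes summed to 62.3, 32.0, 10.6 and 5.86 CPM, which is 0.237%, 0.129%, 0.0379% and 0.0381% of their level in tumour-gated cells. Mmp16 of WT lymphocytes was at 70.2% and 76.5% of its level in tumour-gated cells of the same samples. The part of tumour RNA in the lymphocyte Mmp16 counts was not tested. In tumour-gated cells the 32 Il1a-/- cells held 0 Mmp16 UMIs where the WT level would have given 3.47, so that a difference was not detectable there.

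Timp2 in lymphocytes fell from 49.5 and 70.1 CPM in WT to 24.5 and 14.99 in Il1a-/-, with groups that did not overlap, as for 57.1% of genes. The log2 fold change was -1.63 ± 0.26 (edgeR adjusted p = 0.0209), and without WT replicate 2 it was -1.31 with an adjusted p of 0.0579. Both Il1a-/- samples were lower than both WT samples among cells with NK genes (49.4, 82.2, 37.6 and 16.8), with gamma-delta receptor genes (50.2, 74.4, 28.2 and 7.75), with Cd4 (50.2, 54.2, 16.8 and 30.7) and with Cd8 genes (21.3, 44.7, 11.8 and 7.47), but not with Foxp3 (67.9, 66.3, 82.8 and 71.0). The make-up of the gate moved with the genotype: cells with Cd8 genes made up 7.04%, 12.4%, 37.6% and 37.4%, and cells with NK genes 51.9%, 53.7%, 31.0% and 29.4%. Fibroblast markers in lymphocytes, 11 or 12 of 12 detected, also summed lower in Il1a-/- (43.9, 51.8, 29.5 and 25.3 CPM). They stood at 0.0340% to 0.0888% of their fibroblast level, and Timp2 at 2.71%, 7.30%, 1.14% and 1.11% of its own. Macrophage markers in lymphocytes stood at 0.854%, 1.30%, 1.86% and 1.62% of their macrophage level. Timp2 in lymphocytes was at 14.7%, 27.3%, 17.0% and 7.01% of its macrophage level. The parts of the make-up and of fibroblast or macrophage RNA in the Timp2 difference were not tested. Mmp9 (1.32 ± 0.87), Mmp12 (0.40 ± 0.60) and Timp1 (-0.31 ± 0.64) were not called in lymphocytes by edgeR. Mmp9 was called higher there with no low-count filter (edgeR adjusted p = 0.00472) and without Il1a-/- replicate 1 (0.0415). Without the granulocyte-led cluster, an alternative added after the data had been seen, Mmp16 and Timp2 were called as before (edgeR adjusted p = 0.0121 and 0.0244).

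**Figure D4:**
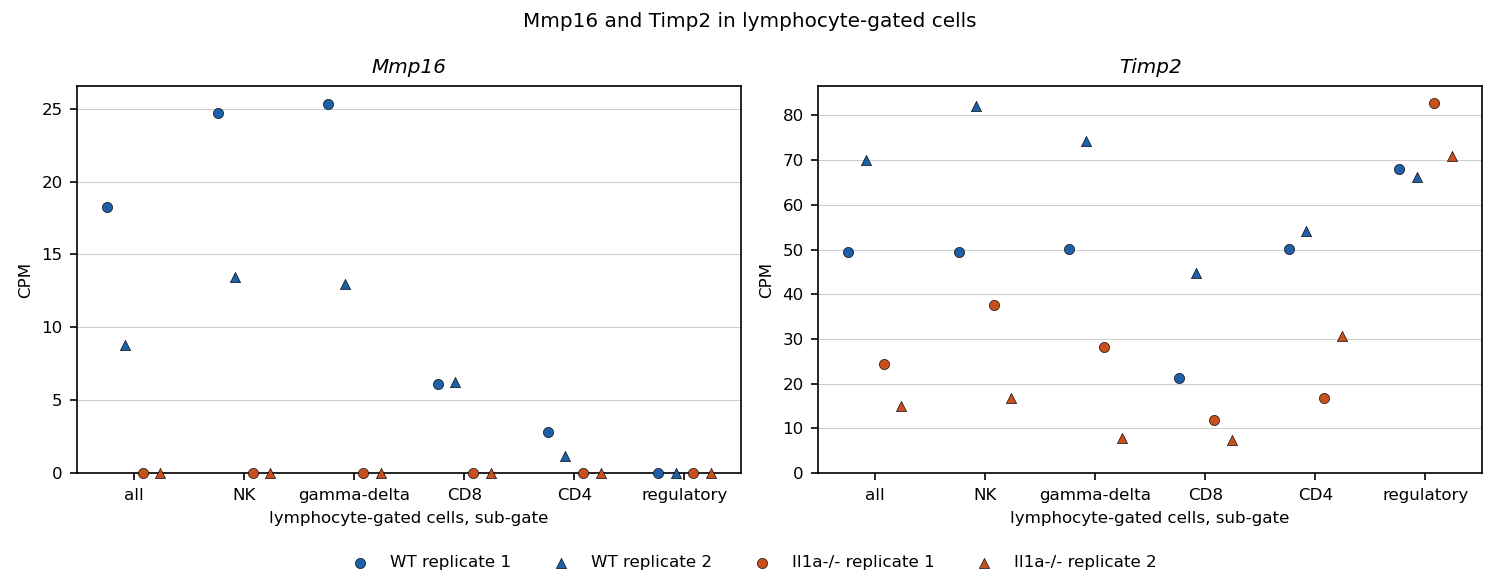
Mmp16 and Timp2 in CPM in all lymphocyte-gated cells and in those with a UMI of NK, gamma-delta receptor, Cd8, Cd4 or Foxp3 (regulatory) genes, 1 point per sample. Mmp16 is at 0 in every Il1a-/- sample, and Timp2 is lower in Il1a-/- in all groups of cells other than the regulatory one.

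The fitted genotype effects of Timp1 differed between classes. The fitted Timp1 level was lower in Il1a-/- fibroblasts (-1.91) and higher in Il1a-/- macrophages (1.30), neither of them called alone. After TMM normalisation the groups overlapped in both classes, and the macrophage effect was -0.59 without Il1a-/- replicate 2. In a joint fit of the 3 classes with the sample as a block, the macrophage effect exceeded the fibroblast effect by 3.18 ± 0.37 on the log2 scale (edgeR adjusted p = 0.0218), where 0.0447% of 11192 genes were called (0.0357% in this direction) and Timp1 was 1 of 9 members tested. Fibroblasts were above macrophages in each of the 4 samples. The call was lost without Il1a-/- replicate 1 (3.05, adjusted p = 0.239), without Il1a-/- replicate 2 (3.47, adjusted p = 0.775) and without the contractile cluster (2.38, adjusted p = 0.161), an alternative added after the data had been seen. The cluster was a smaller share of fibroblasts in both Il1a-/- samples than in either WT sample. Among the other fibroblasts Timp1 was 156 and 399 in WT and 65.0 and 170.5 in Il1a-/-, which overlap. By the same edgeR fit no member was called in the lymphocyte effect minus the fibroblast effect (0.0536% of genes called; 5 members with an unadjusted p under 0.05) or minus the macrophage effect (0% of genes called by edgeR, 788 at an unadjusted p under 0.05, 6 by DESeq2; 1 member with an unadjusted p under 0.05). Against the fibroblast effect, Timp2 (edgeR adjusted p = 1.03e-06) and Mmp9 (0.000275) were called with no low-count filter, and Mmp9 also without WT replicate 1 (0.0204). Against the macrophage effect, Timp1 was called with no low-count filter (edgeR adjusted p = 0.0449).

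**Figure D5:**
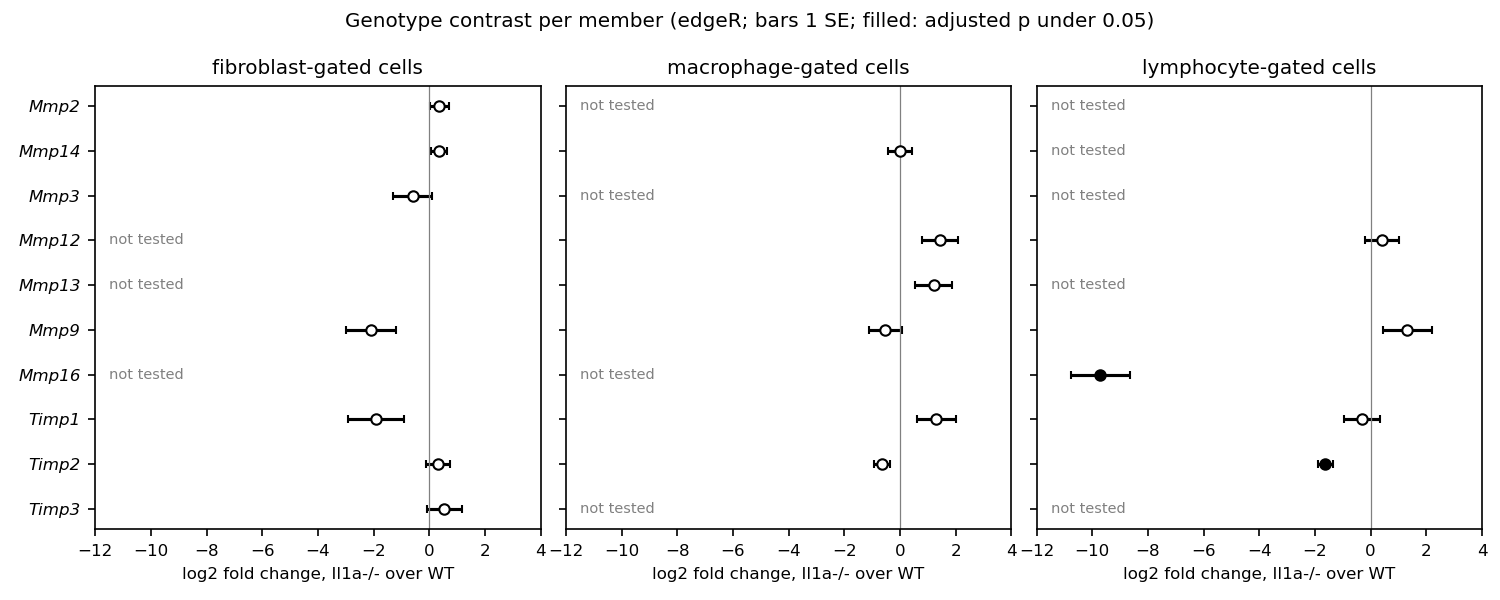
Log2 fold change of each tested member in Il1a-/- over WT in fibroblast-, macrophage- and lymphocyte-gated cells, with bars of 1 SE from edgeR; filled points have an adjusted p under 0.05. The 2 filled points are Mmp16 and Timp2 in lymphocytes, and the fitted size for Mmp16 depends on the prior count because Il1a-/- is at 0.

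Over all called cells, which mixes cell make-up and level per cell, Mmp16 was lower in Il1a-/- (15.4, 7.27, 0 and 0.151 CPM; log2 fold change -6.55 ± 0.78, edgeR adjusted p = 0.0494), 1 of 10 members tested, where 1.1% of 14028 genes were called and 0.577% called lower. Leaving out any one library took its edgeR adjusted p to between 0.0809 and 0.125, and the call was also lost with cells of at least 1000 UMIs (0.055) and at 10% mitochondrial UMIs (0.0503). Here too Mmp16 passed the low-count filter through the WT samples only, so it could only be called lower. Fewer cells of a type and less RNA per cell cannot be told apart in this sum. Mmp2 was 0.86 ± 0.22 higher in Il1a-/- and Mmp14 0.44 ± 0.14 higher, with edgeR adjusted p of 0.0868 and 0.126. Over the 12 alternatives Mmp2 was called higher in 3 and Mmp14 in 0.

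Lists of related genes were read in the same fits. In lymphocytes 2 of 14 tested proteases of the plasminogen, cathepsin, ADAM and ADAMTS families were called, where 4.85% of all genes were, both higher in Il1a-/-: the sheddases Adam8 (log2 fold change 1.36) and Adam19 (1.17), with a list median of 0.38 against -0.02 for all genes. Of 5 other protease inhibitors, Serpine2, an inhibitor of thrombin and plasminogen activators, was called higher (2.00; 3.59, 3.31, 16.4 and 11.7 normalised CPM). Of 16 matrix substrates, 3 were called, all lower: Col6a3 (-3.57), Bgn (-2.51) and Sparc (-1.55), with a median of -1.04. Their levels in lymphocytes were 13.6 normalised CPM or less. The fibroblast marker sum given above was lower in Il1a-/- too, and its part in these differences was not tested. In the lymphocyte effect minus the fibroblast effect, where 0.0536% of genes were called, Col6a3 (-4.29) and Serpine2 (3.50) were also called (edgeR adjusted p = 0.0268 and 0.00153). Of 15 AP-1, NF-kB, ETS and RUNX factors, 3 were called higher (Fosl2 1.48, Fosb 1.26 and Runx2 1.13) and 1 lower (Jun -1.15), with a median of 0.35. In macrophages the matrix glycoprotein Thbs1 was called higher in Il1a-/- (71.5, 47.6, 599 and 641; log2 fold change 3.39 ± 0.27), 1 of 9 matrix substrates, and 0 of 15 proteases, 0 of 3 inhibitors and 0 of 15 factors were. In fibroblasts none of the 4 other MMPs, 8 inhibitors, 23 proteases, 28 substrates and 15 factors tested was called. Over all called cells, where 1.1% of genes were called, 1 of 28 matrix substrates, Spp1 (-3.32), was called lower. Of 17 factors, Fosl2 (1.75) was called higher (edgeR adjusted p = 0.0494 for both genes). That sum mixes cell make-up and level per cell, and with cells of at least 1000 UMIs it gave 2 calls over all genes. Between fibroblasts and macrophages, where 59% of all genes were called, 4 other MMPs could be tested: Mmp23 (8.87), Mmp11 (5.78) and Mmp19 (0.92) were called higher in fibroblasts than in macrophages, and Mmp8, the neutrophil collagenase, lower (-4.95). Of 8 other inhibitors 7 were called, 6 of them higher in fibroblasts, among them the membrane-anchored inhibitor Reck (7.41). All 23 proteases tested were called, 14 higher in fibroblasts, among them Fap (8.15), and 9 lower, among them Ctss (-8.72), which is a macrophage gate marker. Of 28 matrix substrates 26 were called, all higher in fibroblasts, and several of them are fibroblast gate markers.

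The genes whose level was most like each member were ranked by Pearson correlation of log2 CPM plus 1 over 15 sums of class and sample, among 6356 genes. The sums share libraries and depth, and the values are descriptions. Mmp2 was closest to the fibrillar collagen gene Col5a2 (r = 0.993), followed by the proteases Prss23 (0.989) and Htra1 (0.988). Mmp3 was closest to Lgi2 (0.996), Vegfd (0.993) and Pcdh19 (0.993), and Timp3 to Ptx3 (0.997), Cd248 (0.997) and Ntrk2 (0.996). Mmp14 was closest to Marcks (0.988), Cpq (0.983) and Idh1 (0.972), and Timp2 to Rnase4 (0.970), 2510009E07Rik (0.959) and Tns1 (0.959). Mmp12 was closest to the mannose receptor Mrc1 (0.988), C3ar1 (0.986) and the lectin Mgl2 (0.985), and Mmp13 to Atp6v1b2 (0.959), Pf4 (0.945) and Mmp12 (0.943). Timp1 was closest to Gng11 (0.971), Emilin1 (0.957) and the chemokine Ccl7 (0.949). The highest values were lower for Mmp9 (Cdc26 0.729, Dhrs3 0.693 and Nrbf2 0.691) and Mmp16 (Eef1g 0.858, Imp3 0.842 and Drap1 0.841).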

How the data were processed

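The deposited files hold UMI counts per gene and cell barcode, unnormalised, for a combined human and mouse feature set of 64591 genes; the authors made the counts with Cell Ranger 3.1.0 against mm10, per the submitters' processing notes. Mouse genes were used. Barcodes with at least 500 UMIs, 250 genes and at most 20% mitochondrial UMIs were kept, and Scrublet's highest-scoring 0.8% per 1000 cells were removed as doublets. No test for empty droplets was run. Free RNA was read from barcodes with at most 100 UMIs.

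A cell took the class with the most detected markers (at least 2, and 2 more than the next class). Counts were summed per sample and class and tested with edgeR 4.0.16 (quasi-likelihood, filterByExpr, TMM, Benjamini-Hochberg over all genes, 0.05). The 12-sum fit over 3 classes carried the sample as a block. DESeq2 1.42.0 was an alternative, as were other filters, gates and left-out libraries; the edgeR code was tested on simulated data. Clusters used scanpy 1.11.5 (2000 variable genes, 30 components, Leiden resolution 1). One cluster of 116 cells, counted as lymphocyte in the cluster alternative, was led by Retnlg, Cd24a and Ccl6, not by lymphocyte markers, and 64 of its cells were in the lymphocyte gate of the main tests.

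Members and gene lists were chosen with earlier results of these data known. Every member is named; of each list, the genes named are among those called, at most the 4 with the smallest adjusted p per list and class, and likeness names the 3 genes with the highest correlation. Gene positions are from GENCODE vM21. Strand of counting is not given in the sources used here: Timp1 and Timp3 overlap Syn1 and Syn3 on the other strand (50 and 81 UMIs), and Timp2 overlaps Cep295nl on its own strand (45 UMIs). Mmp12 overlaps Mmp1b on the other strand (0 UMIs). Intervals and floors of 3 counts cover counting error only, and the floors only that of the Il1a-/- counts.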

Additional observations from a re-analysis of the deposited data

Results flagged for a closer look

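The genotype effect on Timp1 differed between macrophages and fibroblasts by 3.18 on the log2 scale in the interaction test, with levels of 24.8, 81.4, 38.2 and 193 CPM in macrophages and 495, 1621, 66.6 and 484 in fibroblasts (WT replicates 1 and 2, Il1a-/- replicates 1 and 2). The contractile cluster's share of fibroblast-gated cells was 11.1%, 32.2%, 1.04% and 8.11% in the same samples. Without the cluster the difference was 2.38 (edgeR adjusted p = 0.161). Within each class the groups overlapped after TMM normalisation and the genotype effect was not called. The interaction call depended on both Il1a-/- libraries, as given above.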

How the results depend on the processing

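With 2 tumours a group, counts of called genes moved with the setting. In lymphocytes, 540 genes became 1700 with no low-count filter and 2044 with the replicate number as a block; in macrophages, 7 became 93 by DESeq2, 510 with no filter, 3 with cells of at least 1000 UMIs, 3 at 10% mitochondrial UMIs and 167 with the block; in fibroblasts, 0 became 8, 214 and 4 by DESeq2, no filter and the block. Over all cells, 154 became 1811 by DESeq2, 2040 with no filter, 2 with at least 1000 UMIs, 39 at 10% mitochondrial UMIs, 382 with no doublet removal and 1789 with the block. For the macrophage minus fibroblast effect, 5 became 10 by DESeq2, 123 with no filter, 3 with at least 3 markers per gate, 1 at 10% mitochondrial UMIs, 3 with no doublet removal and 0 without the contractile cluster. The lymphocyte effect gave 14 by DESeq2 and 194 with no filter against fibroblasts (6 before), and 6 and 177 against macrophages (0 before). The causes were not tested. Leaving out 1 library gave 0 to 73 calls over all cells, 146 to 1033 in lymphocytes, 1 to 147 in macrophages, and 0 to 6, 0 to 12 and 0 to 5 for the effects compared between classes (macrophage minus fibroblast, lymphocyte minus fibroblast, lymphocyte minus macrophage).

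None of the member values whose direction changed had been called. Timp1 in lymphocytes was 0.026 with no doublet removal, Mmp14 in macrophages 0.073 by DESeq2 and 0.0040 by RLE scaling, Mmp3 over all cells 0.044 with the replicate block, and Mmp9 in fibroblasts against macrophages and lymphocytes -1.80 and -0.38 without the contractile cluster. Leaving out 1 library, log2 values ran over all cells from -1.45 to 2.14 for Mmp12, -1.98 to 1.76 for Mmp13, -0.96 to 0.94 for Mmp3, -1.77 to 0.53 for Mmp9, -3.27 to 0.032 for Timp1 and -0.20 to 1.74 for Timp3. In macrophages they ran from -0.39 to 2.19 for Mmp12, -1.43 to 1.86 for Mmp13, -0.81 to 0.66 for Mmp14 and -0.59 to 2.45 for Timp1; in fibroblasts from -1.49 to 0.48 for Mmp3, -0.043 to 0.85 for Timp2 and -0.67 to 1.22 for Timp3; in lymphocytes from -0.56 to 3.32 for Mmp9 and -2.87 to 0.26 for Timp1. Mmp9 in fibroblasts against macrophages ran from -0.46 to 0.53, and Timp3 in macrophages against lymphocytes from -0.65 to 0.010. Of the other single-gene values, 827 kept their direction and side of the threshold, 17 passed it only under the alternative and 13 lost it. Effects compared between classes entered these totals and the changes of direction only where their main unadjusted edgeR p was under 0.05.

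Replicate numbers are shared between genotypes, but the labels do not say that a number marks a collection day. Deviations of same-numbered samples correlated at 0.338 in lymphocytes, 0.063 in macrophages, 0.546 in fibroblasts and 0.339 over all cells. The tumour gate kept 32 Il1a-/- cells under both other gates.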
